A study of Mus musculus with 6 samples.

Results

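The genes described here are 9 genes of resting astrocytes, which carry out glutamate uptake (Slc1a2, Slc1a3), glutamine synthesis (Glul), gap junction coupling (Gja1, Gjb6), water transport (Aqp4), folate metabolism (Aldh1l1), bicarbonate transport (Slc4a4) and calcium binding (S100b). They were chosen by name as known astrocyte genes, and each symbol was matched to the Ensembl identifier of the deposited tables. All 9 were listed in all 6 libraries, among 15441 genes with a value in at least 1 library. RNA came from the whole ipsilateral cortex of young adult male C57/BL6J mice after photothrombosis, in which Rose Bengal and light through the intact skull close the vessels of the sensorimotor cortex. The groups were control (sham-operated mice without illumination, taken at day 7 after the operation) and stroke mice taken 1, 3, 7, 14 or 28 days after illumination. Each group is 1 library in which the RNA of 3 mice was pooled, so no difference given here has a replicate check and no p-value was computed. Because the whole cortex was taken, infarct core, peri-infarct and distant tissue are mixed in each stroke library.

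Astrocytes clear synaptic glutamate with the transporters GLT-1 (Slc1a2) and GLAST (Slc1a3), and glutamine synthetase turns it into glutamine, which is handed back to neurons. Connexins join neighbouring astrocytes into a network through which potassium and metabolites spread, and aquaporin in the perivascular endfeet carries water. After focal injury, astrocytes near the lesion become reactive, with more of the intermediate filament proteins GFAP and vimentin.

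The values are FPKM, a number of sequenced fragments scaled to the length of the transcript and to the size of the library, so levels of different genes can be set side by side. Where 5 values follow that of control, they are those of the stroke libraries in the order of time. All 5 comparisons share the control library. In control, the 9 genes ranged from 22.6 FPKM (Slc4a4) to 485 FPKM (Glul). None of the 9 differed from control by a log2 ratio of 1 in size, a fold of 2, at any of the 5 time points. The numbers were 0 higher and 0 lower of 9 at day 1, where 5.11% of all 11790 genes compared were higher and 4.48% lower by this threshold. At day 3 they were 0 and 0 of 9, against 8.54% and 2.53% of all genes, and at day 7 0 and 0 of 9, against 8.53% and 2.12%. At day 14 they were 0 and 0 of 9, against 8.97% and 6.92%, and at day 28 0 and 0 of 9, against 3.68% and 2.79%. With 9 genes and backgrounds of this size, few or no genes past the threshold is near what the whole table shows, and nothing particular to the 9 genes is read from these counts. In bulk cortex, fewer astrocytes and less RNA per astrocyte cannot be told apart.

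At lower thresholds a few of the genes were counted. At log2 0.5, Gjb6 was higher at day 1 (1 of 9, with 14% of all genes, and 0 lower with 13.6%) and Aqp4 at day 3 (1 of 9 with 18.5%, and 0 lower with 8.82%). At day 7 none of the 9 passed it, with 17.8% of all genes higher and 7.84% lower. At day 14 S100b was higher (1 of 9 with 22.3%) and Slc1a2 and Slc4a4 lower (2 of 9 with 15.9%), and at day 28 none was, with 11% and 8.55%. At a fold of 1.5 (log2 0.58), 0 of 9 passed at day 1 (11.5% of all genes higher, 11.2% lower) and Aqp4 was higher at day 3 (1 of 9, with 15.9%, and 0 lower with 6.6%). At day 7 the count was 0 of 9 (15.3% and 6.05%), at day 14 0 higher (18.5%) and 2 lower (13.4%), again Slc1a2 and Slc4a4, and at day 28 0 of 9 (8.93% and 6.92%). Of 9 genes, 1 or 2 counted is near these shares.

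Below the threshold of log2 1 the direction was most uniform at day 3. All 9 genes were then above control, with log2 ratios from 0.04 (Aldh1l1) to 0.90 (Aqp4) and a median of 0.28, beside a median of 0.03 over all genes compared, of which 53.4% were above control. At day 1, 3 of the 9 genes were above control (median -0.06), at day 7 7 of 9 (median 0.08), at day 14 4 of 9 (median -0.10) and at day 28 4 of 9 (median -0.01). The median of all genes was 0.01, 0.03, 0.10 and 0.03 at these days. The highest of the 6 libraries was day 3 for 6 genes, day 1 for Gjb6 and Aldh1l1, and day 14 for S100b. The lowest was day 14 for Slc1a2, Slc1a3, Aqp4 and Slc4a4. Summed over the 9 genes, the level was 1056 FPKM in control, then 1006, 1294, 1121, 1027 and 1065 in the successive libraries.

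**Figure D1:**
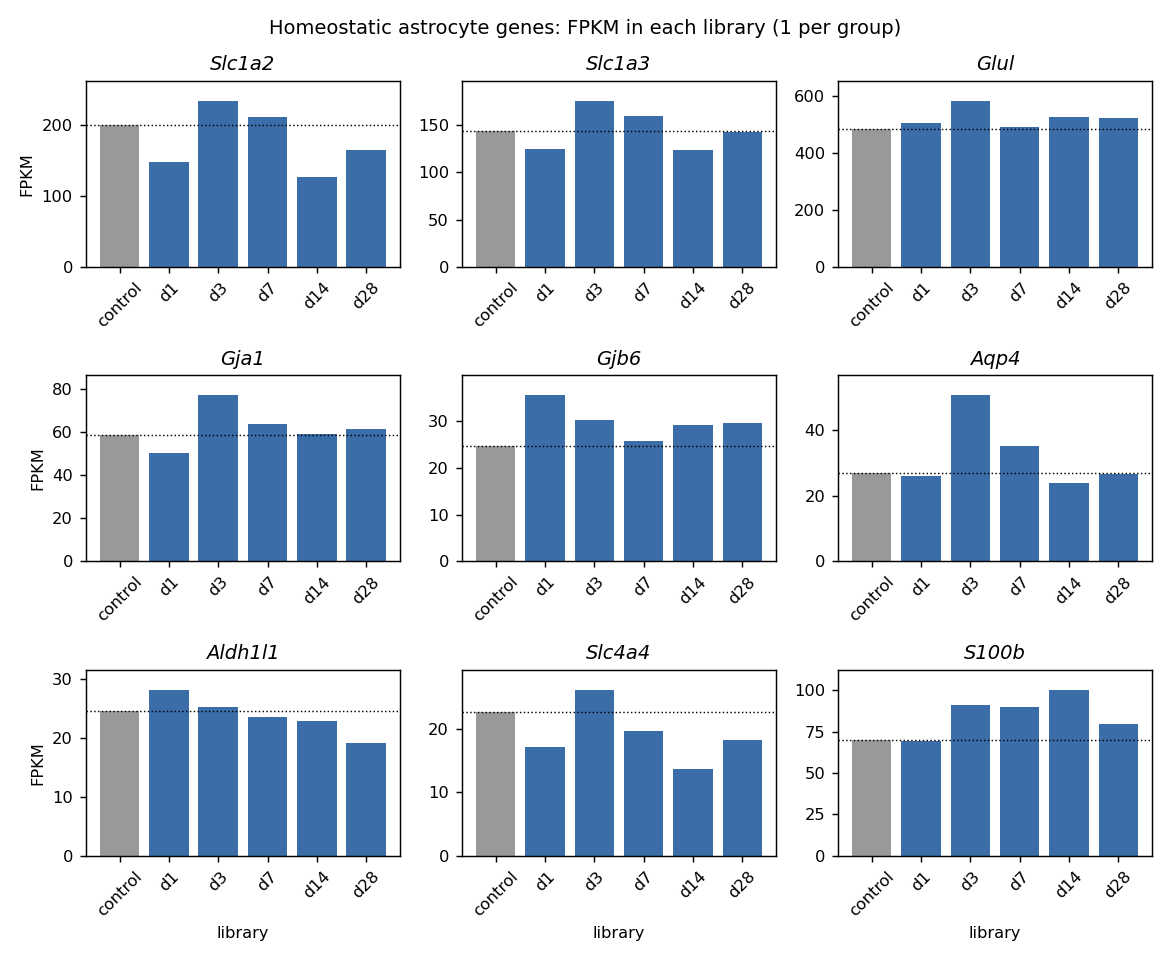
FPKM of the 9 genes (vertical axes, each from 0) in the control library (grey) and the libraries of day 1 to 28 (blue), 1 library per group and no error bars; the dotted line marks control. Day 3 stands highest for 6 of the genes, with Aqp4 at 50.6 FPKM against 27.0 in control.

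**Figure D2:**
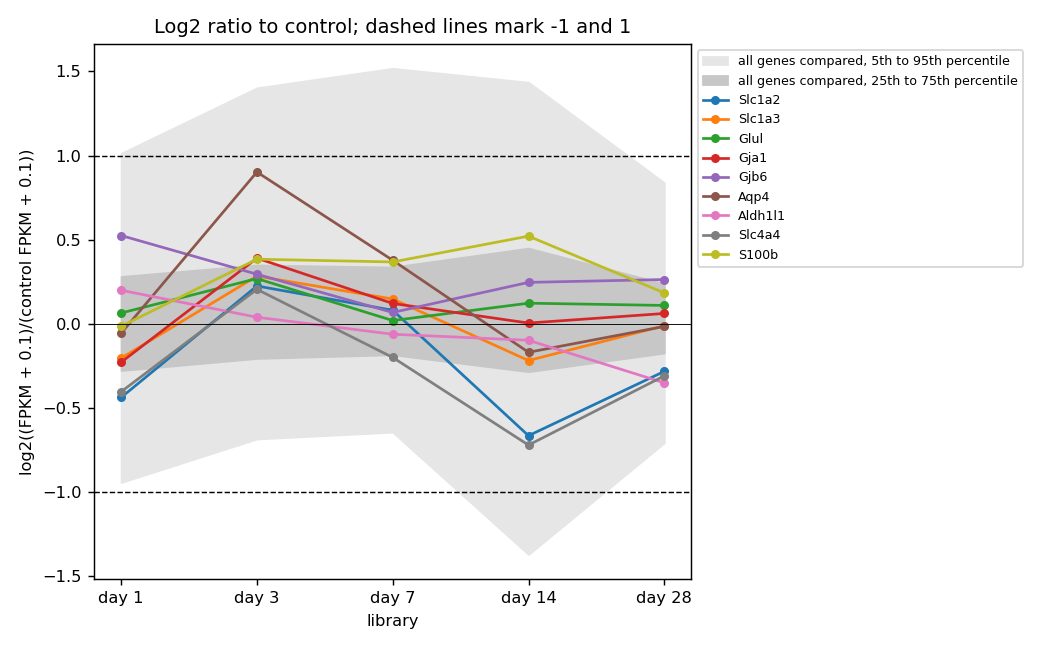
Log2 ratio to control of each gene (lines) by library, over the spread of all genes compared (light grey, 5th to 95th percentile; dark grey, 25th to 75th percentile). All points lie between the dashed lines at -1 and 1, all are above 0 at day 3, and Slc1a2 and Slc4a4 are the lowest at day 14.

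The day 14 library listed the fewest events (83501, against 92295 to 99187 in the others), and long transcripts were lower in it: across 12025 genes, Spearman's rho between log2 ratio and length was -0.41. The other libraries had -0.25 (day 1), 0.0033 (day 3), -0.089 (day 7) and -0.036 (day 28). The longest annotated transcripts of the 9 genes run from 1484 nt (S100b) to 11595 nt (Slc1a2), against a median of 3410 nt over the genes compared at day 14. Genes are not independent replicates, and this is a description. Values corrected for this trend, by dividing each library by its median ratio to control in 20 length bins, are given for the genes they move most. With this correction, S100b alone of the 9 genes was above control at day 14, Gjb6 and Aldh1l1 were at day 1, and all 9 still were at day 3.

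Slc1a2 (ENSMUSG00000005089, chromosome 2, 102658659 to 102790784 of GRCm38) encodes the main glutamate transporter of forebrain astrocytes. It had a level in FPKM of 199.9 in control, then 148, 234, 212, 126 and 164 in the stroke libraries by time. The libraries of day 3 and 7 were thus above control, and those of day 1, 14 and 28 below it. The log2 ratio was -0.44 at day 1 and -0.66 at day 14, and 11.5% of all genes compared were as low or lower at day 14. With the correction for length, the ratios were -0.16 at day 1 and -0.39 at day 14. Nearly the whole value came from the transcript start at 102658659, with 199.5 FPKM in control and 126 at day 14. An internal start at 102675484 had at most 0.076 FPKM in any library.

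Slc1a3 (ENSMUSG00000005360, chromosome 15, 8634124 to 8710764) encodes the second astrocyte glutamate transporter. Its FPKM was 144 in control, then 125, 176, 159.8, 124 and 143 by increasing time, so day 28 was close to control while day 14 and day 1 were the lowest. The log2 ratio ran from -0.22 at day 14 to 0.28 at day 3. The value is that of the single listed transcript end. The listed starts summed to 92.1 FPKM in control, below the end, and to 176 at day 3, about as much as the end, and the log2 ratio at day 3 from the starts was 0.93. The ratio of Slc1a2 to Slc1a3, which does not depend on the scaling of a library, was 1.39 in control, then 1.18, 1.33, 1.32, 1.02 and 1.15 from the earliest day to the latest. On these values it was lowest at day 14, where both genes had nearly the same level. The order depends on the processing: with the correction for length the ratio was 1.20 at day 14 and 1.18 at day 28, and from summed starts it was lowest at day 3 (1.33).

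Glul (ENSMUSG00000026473, chromosome 1, 153899944 to 153909723), glutamine synthetase, was the most abundant of the 9 genes and the one that varied least. It had 485 FPKM in control, then 507, 584, 491, 528 and 523 in the successive libraries. Its highest library was 1.21 times its lowest, and 95.3% of the 10169 genes with at least 1 FPKM in all libraries had a wider range. In the libraries of day 1 and day 14, where Slc1a2 was lowest, Glul stood at 1.05 times (day 1) and 1.09 times (day 14) the control level. With the correction for length these log2 ratios turned from 0.06 to -0.01 and from 0.12 to -0.05, and with median-of-ratios scaling Glul was below control at day 7, so no direction is given for Glul at these days.

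Other genes of the glutamate and glutamine cycle were taken as a list of 12. At log2 1, 0 of 12 were higher at any day, and 1 of 12 was lower at day 7 and at day 28. The gene past the threshold at day 7 was the glutaminase Gls2, with 2.10 FPKM against 5.08 in control (log2 ratio -1.23), and at day 28 the glutamine transporter Slc38a5, with 0.324 against 1.32 (-1.74). Both calls were lost with a pseudocount of 1 FPKM. Slc38a3, the glutamine exporter of astrocytes, had 21.2 FPKM in control, then 21.6, 29.0, 25.9, 34.1 and 14.2 in the stroke libraries by time. The neuronal vesicular transporter Slc17a7 had 303 FPKM in control and 164 at day 14, a log2 ratio of -0.89 that became -1.01 with the correction for length. The neuronal transporter Slc1a1 stayed between 17.6 and 21.5 FPKM.

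For the transcript starts, RefSeq promoter windows (GRCm38.p6) were found for 8 of the 9 genes. The leading deposited start lay within 50 bases of the RefSeq start for Slc1a3 (43 bases), Glul (15), Gja1 (30), Gjb6 (0) and Aldh1l1 (4). The windows shown are the 250 bases before the RefSeq start of Slc1a3, which was above control at day 3 and below it at day 1 and 14, and of the connexin genes Gja1 and Gjb6, which parted at day 1. Each reads 5′ to 3′ on the strand of its gene. Capitals mark matches to 5 motifs, searched on both strands. The NFI site was TTGGC, found in 41.5% of 32851 promoter windows of the same length. The STAT motif was TTCNNNGAA, found in 7.02% of these windows. The GC box was GGGCGG, found in 32.7% of them. The TATA box was TATAAA, with a share of 12.4%. The box named CCAAT, with a share of 33.8%, can overlap the NFI site on the other strand.
Slc1a3, chr15:8710808-8711057 (- strand): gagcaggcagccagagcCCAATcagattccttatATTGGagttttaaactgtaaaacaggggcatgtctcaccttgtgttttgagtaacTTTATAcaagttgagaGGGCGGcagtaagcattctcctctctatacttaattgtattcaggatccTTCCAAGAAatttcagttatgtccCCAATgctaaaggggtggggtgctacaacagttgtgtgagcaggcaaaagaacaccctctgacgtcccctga
Gja1, chr10:56377050-56377299 (+ strand): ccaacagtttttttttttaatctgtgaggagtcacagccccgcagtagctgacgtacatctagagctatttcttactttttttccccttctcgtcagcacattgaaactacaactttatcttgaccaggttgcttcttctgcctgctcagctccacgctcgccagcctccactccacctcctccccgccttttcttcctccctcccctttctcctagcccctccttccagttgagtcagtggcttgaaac
Gjb6, chr14:57133612-57133861 (- strand): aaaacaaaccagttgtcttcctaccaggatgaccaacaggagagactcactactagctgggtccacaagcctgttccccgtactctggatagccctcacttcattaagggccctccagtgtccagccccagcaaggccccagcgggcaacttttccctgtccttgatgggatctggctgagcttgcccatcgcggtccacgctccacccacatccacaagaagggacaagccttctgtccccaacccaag
The window of Slc1a3 held 1 STAT match, 1 GC box, 1 TATA box and 3 CCAAT boxes. Neither connexin window held any of the 5 motifs. The matches describe the letters in these windows and nothing about binding.

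Gja1 (ENSMUSG00000050953, chromosome 10, 56377330 to 56402513), which encodes Cx43, the main astrocyte connexin, had a level in FPKM of 58.8 in control, then 50.2, 77.1, 64.0, 59.0 and 61.4 by increasing time. It was below control at day 1 only (log2 ratio -0.23) and highest at day 3 (0.39). With either rescaling of the libraries and with the length correction, it was below control at day 14 too. Gjb6 (ENSMUSG00000040055, chromosome 14, 57123303 to 57133611), which encodes Cx30, had 24.6 in control, then 35.5, 30.2, 25.8, 29.2 and 29.6 from the earliest day to the latest. All 5 post-stroke libraries were above control for Gjb6, with the highest at day 1 (log2 ratio 0.53, 0.39 with the length correction). At day 14 the correction brought Gjb6 from 0.25 to -0.02. The ratio of Gja1 to Gjb6 was 2.39 in control, then 1.42, 2.55, 2.48, 2.02 and 2.08 in the successive libraries. Its value at day 14 depends on the processing. Corrected for length, Gja1 (-0.03) and Gjb6 (-0.02) stood nearly alike against control there, so the pair was close to its control ratio. Day 1 was the library in which the connexin pair stood closest.

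Of 10 other connexin and pannexin genes taken as a list, 6 had a value. Of the 5 compared at each day, 0 were past log2 1 in either direction. Among the oligodendrocyte connexins, Gjb1 had 7.66 FPKM in control and 5.04 at day 1 (log2 ratio -0.60). At day 14, Gjb1 had 9.59 FPKM (0.32, and -0.06 with the correction for length). Gjc3 had 11.4 in control and 7.14 at day 28 (-0.67). The pannexin Panx1 was above control at every day, with 2.12 FPKM in control and 3.22 at day 28 (0.58).

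Aqp4 (ENSMUSG00000024411, chromosome 18, 15389496 to 15410982) encodes the water channel of astrocyte endfeet. Its FPKM was 27.0 in control, then 26.0, 50.6, 35.2, 24.0 and 26.8 in the stroke libraries by time. Day 3 and day 7 stood above the other 4 libraries, which lay between 24.0 and 27.0. At day 14 the log2 ratio was -0.17, and -0.06 with the correction for length. At day 3 the level was 1.87 times control (log2 ratio 0.90), the largest ratio of the 9 genes at any day, and 9.77% of all genes compared were as high or higher. Between day 1 and day 3 the log2 ratio was 0.96. Aqp4 had a transcript with a first exon of 85 bases and one with the same start and a first exon of 1026 bases. The shorter had 22.1 FPKM in control, then 18.7, 44.7, 35.2, 19.4 and 21.5 by increasing time. The longer had 4.90 in control, 7.29 and 5.89 at the first days, 4.63 at day 14 and 5.26 at the last day, and was not listed for day 7, so the difference at day 3 was carried by the shorter first exon.

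Genes that act with Aqp4 at the endfoot, or in potassium buffering, were taken as a list of 14. Of the 13 or 14 compared at each day, 0 were higher and 0 lower by log2 1. At day 3, 11 of the 14 were above control, with a median log2 ratio of 0.23. The 3 below control at day 3 were Agrn (-0.46), Aqp11 (-0.38) and Dtna (-0.17). The medians of the other days were -0.01, 0.03, -0.16 and -0.13, in order of time. Kcnj10, the potassium channel Kir4.1, had 34.2 FPKM in control, then 34.0, 49.7, 38.5, 24.0 and 25.2 from the earliest day to the latest. As for Aqp4, day 3 was highest, day 7 next and day 14 lowest on these values. Corrected for length, the log2 ratio of Kcnj10 was -0.31 at day 14 and -0.45 at day 28, so day 28 was then lowest for Kcnj10. Kcnj16, its partner subunit, had 6.80 in control and 10.4 at day 3 (log2 ratio 0.60), and Mlc1, a membrane protein of the endfeet, 64.4 and 85.6 (0.41). Dag1, which encodes the dystroglycan that anchors the channel complex, had 18.7 FPKM in control and 11.8 at day 14 (-0.65, and -0.46 with the correction for length). Other genes of the list did not follow Aqp4. Aqp1, with the largest ratio of the list, had 1.01 FPKM in control and 2.02 at day 7 (0.94), and was above control at every day. Dmd had 7.18 in control and 4.65 at day 28 (-0.62).

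Slc4a4 (ENSMUSG00000060961, chromosome 5, 88886818 to 89239653) encodes the sodium bicarbonate cotransporter of astrocytes. It had a level in FPKM of 22.6 in control, then 17.1, 26.1, 19.7, 13.7 and 18.3 in the successive libraries. Only day 3 was above control, and day 14 was the lowest at a log2 ratio of -0.72, the lowest ratio of the 9 genes at any day. With the correction for length, the ratio was -0.46 at day 14 and -0.22 at day 1.

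The events of Slc4a4 differed between libraries more than its level did. Near the 3′ end lies an exon of 97 bases that is coding in its whole length, which is not a multiple of 3, so leaving it out shifts the reading frame. It is shown because its inclusion varied most at day 14 and 28. In GENCODE M21, 3 of the 8 transcripts of the gene hold it.
Slc4a4 exon, chr5:89232764-89232860 (+ strand, GRCm38): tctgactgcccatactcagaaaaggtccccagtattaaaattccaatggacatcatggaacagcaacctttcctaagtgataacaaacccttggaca
Transcripts with the exon had 8.88 FPKM in control, then 8.63, 11.3, 8.09, 0.053 and 14.0 in the stroke libraries by time. Those without it had 13.7, 8.46, 14.8, 11.6, 13.6 and 4.23 FPKM at the same points. The share with the exon was thus 39.3% in control and between 41.1% and 50.5% at day 1 to 7, but 0.387% at day 14 and 76.8% at day 28. At day 14 the leading start at 88886818, which had between 15.8 and 26.1 FPKM in the other 5 libraries, was not listed. The only start listed there was the internal start at 89027966 with 0.053 FPKM, so the value of the gene at day 14 comes from an internal exon. These shares are the authors' estimates of transcript levels from 1 library each, and the depth behind them is unknown.

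**Figure D3:**
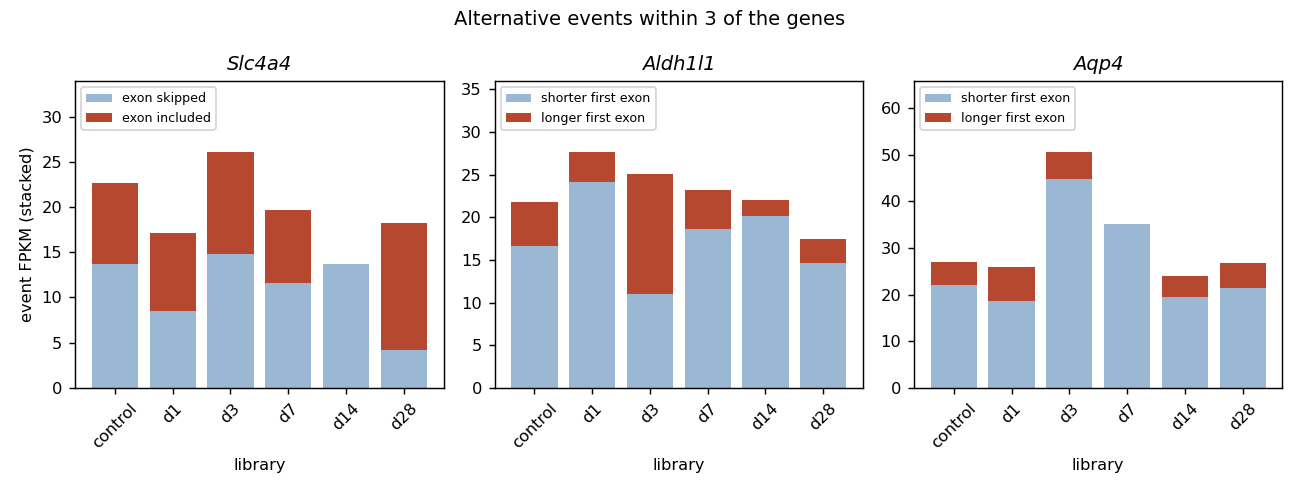
Stacked FPKM (vertical axis) of alternative events in each library, 1 library per group: the 97-base exon of Slc4a4 included or skipped, and the longer or shorter first exon of Aldh1l1 and of Aqp4. The included form of Slc4a4 is nearly missing at day 14 (0.053 FPKM) and the longer first exon of Aldh1l1 is largest at day 3 (14.1 FPKM).

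Of 10 genes for bicarbonate, proton and lactate transport taken as a list, 1 was past log2 1 in the upper direction at day 3 and at day 7, and 1 in the lower direction at day 14 and at day 28. The gene at day 3, 7 and 28 was the lactate transporter Slc16a3, whose control level of 1.22 FPKM compares with 2.80, 4.54 and 0.464 FPKM at these days. The gene at day 14 was the carbonic anhydrase Car14, with 4.77 in control and 2.10 at day 14 (log2 ratio -1.14). The bicarbonate transporters Slc4a10 (45.8 in control, 23.1 at day 14, log2 ratio -0.98) and Slc4a7 (3.63 and 1.85, -0.94) were also below control in that library, at -0.79 and -0.68 with the correction for length. The calls of Car14 and, at day 3 and 28, of Slc16a3 were lost with a pseudocount of 1 FPKM.

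Aldh1l1 (ENSMUSG00000030088, chromosome 6, 90486427 to 90600203), a folate enzyme widely used as a marker of all astrocytes, had a level in FPKM of 24.5 in control, then 28.1, 25.2, 23.4, 22.9 and 19.2 by increasing time. Its libraries followed the order of time, from the highest at day 1 to the lowest at day 28 (log2 ratio -0.35), where 13.6% of all genes compared were as low or lower. Its use of first exons varied more than its level. From the start at 90550789, transcripts with a first exon of 109 bases had 16.7 FPKM in control, then 24.2, 11.0, 18.6, 20.2 and 14.7 from the earliest day to the latest. Those with a first exon of 182 bases had 5.09, 3.48, 14.1, 4.59, 1.85 and 2.79 FPKM. The longer form was therefore 56.2% of the pair at day 3, against 8.41% to 23.4% in the other libraries. A distal start at 90486393 had 2.69 FPKM in control and between 0.119 (day 3) and 1.69 (day 28) after stroke.

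Of 9 other enzymes of folate and one-carbon metabolism, Mthfs, which recycles formyl folate, was past log2 1 at day 3 (12.3 FPKM), day 7 (20.7) and day 14 (17.9), against 5.75 in control, but at none of them when events outside its annotated span were left out. The mitochondrial enzyme Mthfd2 had 1.88 in control and 4.09 at day 1 (log2 ratio 1.08). Mthfd1l had 3.09 in control and 1.06 at day 14 (-1.45), and the serine enzyme Shmt2 5.35 in control and 2.32 at day 28 (-1.17). The calls of Mthfd2, Mthfd1l and Shmt2 were lost with a pseudocount of 1 FPKM, and that of Mthfd2 also with the correction for length. In order of time, 1, 2, 1, 1 and 0 genes of the list were higher, and 0, 0, 0, 1 and 1 lower, of 7 to 9 compared. Besides Mthfs, the gene higher at day 3 was Aldh1l2, with 0.458 FPKM in control and 1.94 at day 3 (log2 ratio 1.87). Its call was lost under 0 of the alternatives, though 2 of them gave it no value.

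S100b (ENSMUSG00000033208, chromosome 10, 76253853 to 76261159) encodes a small calcium-binding protein that astrocytes can release and that oligodendrocytes also make. It had a level in FPKM of 69.8 in control, then 69.1, 91.1, 90.1, 100.2 and 79.3 in the successive libraries. Control and day 1 were close (log2 ratio -0.01, and -0.16 with the correction for length), and the other 4 libraries were above both. It was the only one of the 9 genes that was highest at day 14 (log2 ratio 0.52), but it also has the shortest transcript, and with the correction for length this ratio was 0.14, below that of day 3 (0.40) and day 7 (0.30). All of its value rests on the transcript end at 76259928 to 76261159. Starts were listed in 3 libraries only, outside the annotated gene, at 76253128 in control (33.1 FPKM) and at 76249347 at day 1 (39.2) and day 14 (48.3).

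**Figure D4:**
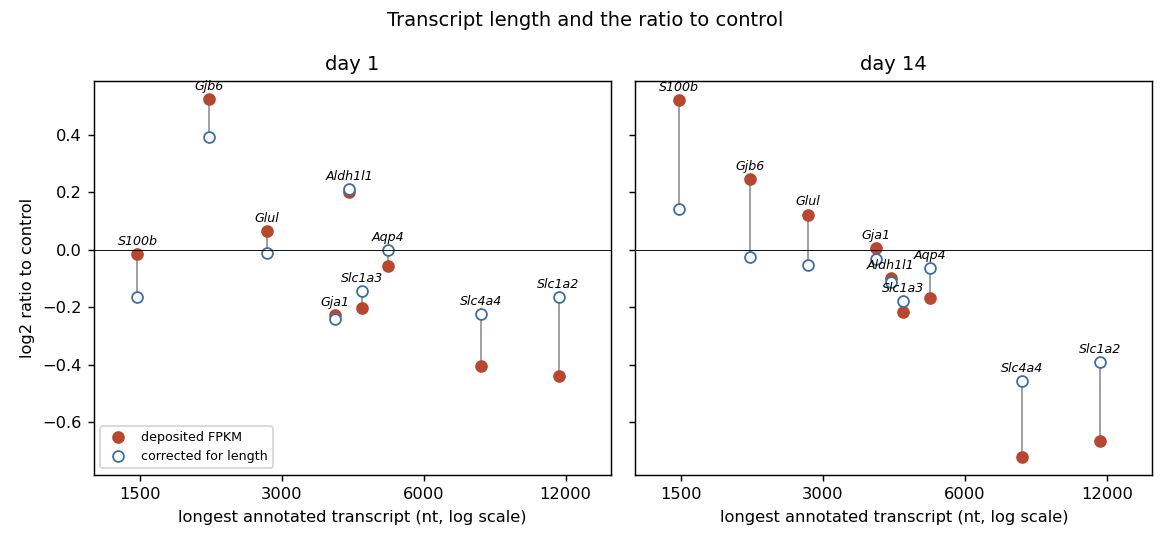
Log2 ratio to control (vertical axis) at day 1 and day 14 against the longest annotated transcript of each gene in nt (log axis), from the deposited FPKM (filled) and after the correction for transcript length (open), 1 library per group. At day 14 the correction moved Slc1a2 from -0.66 to -0.39, Slc4a4 from -0.72 to -0.46 and S100b from 0.52 to 0.14.

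The 9 genes were set beside lists of other astrocyte genes and other cell types. Of 34 other genes of resting astrocytes, 30 had a value. At log2 1, Cbs was higher at day 1 (16.2 FPKM, 7.82 in control) and Apoe lower at day 1 (287 FPKM, 716 in control) and higher at day 14 (3534 FPKM), and 0 were past the threshold at day 3, 7 and 28. The call of Cbs, at a log2 ratio of 1.04, was lost with a pseudocount of 1 FPKM and with upper-quartile scaling. Microglia and macrophages also express Apoe. The median of the list ran through -0.07, 0.10, 0.15, 0.20 and 0.01 in order of time. These medians are not corrected for length, so no contrast with the 9 genes is read from the value of day 14. At day 3, where all 9 genes were above control, 18 of these 30 were above control and 12 below, beside 53.4% above control among all genes. The GABA transporter Slc6a11 ranged from 28.7 to 37.8 FPKM.

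Genes of reactive astrocytes differed from control by far more than the 9 genes. Of 12, 11 were higher by the threshold at day 1, 12 at day 3, 8 of 11 compared at day 7, 9 at day 14 and 3 of 9 compared at day 28, with medians of 2.57, 3.22, 2.39, 2.34 and 0.80. Lcn2 and Steap4, which had no entry in control, are among these, and a missing entry counts as 0 although it does not show a low level. Nes had 1.27 FPKM in control and no entry at day 14 and day 28, so no direction is given for it there. Gfap had 85.8 FPKM in control, then 329.9, 698, 422, 380.0 and 149.7 in the stroke libraries by time. Vim had 15.5 in control and 167 at day 3, and Serpina3n 5.30 and 68.0. At day 3, Gfap was thus at a log2 ratio of 3.02, while the highest of the 9 genes was at 0.90. Which cells of the bulk cortex carried the genes of this list was not tested.

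Markers of other cells moved in the same libraries. The summed FPKM of 13 microglia and macrophage markers (Itgam in no library, Cx3cr1 listed at day 1 and 14, Tmem119 at day 7 and 28) ranged from 286 in control to 1336 at day 7, with 10 of 11 compared higher at day 3, 9 of 11 at day 7 and 10 of 12 at day 14. At day 1, P2ry12 was lower (18.0 FPKM in control, 7.01 at day 1). C1qc was at a log2 ratio of 1.01 there, a call lost in 4 of the 11 alternatives (a pseudocount of 1 FPKM, both other scalings and the correction for length). That of the 6 fibroblast markers ranged from 27.9 to 109, with 5 higher at day 3, 4 at day 7 and 5 at day 14. That of 10 neuron markers (Tubb3 and Neurod6 not listed) was 2827 in control and between 2166 (day 3) and 2695 (day 1) after stroke, and 8 of 10 were below control at day 3. At day 1 and again at day 14, 5 of the 10 neuron markers were above control and 5 below. Map2, the one past the threshold, had 113 FPKM in control and 23.7 at day 14 (log2 ratio -2.25, and -2.04 with the correction for length). The 10 endothelial markers ranged from 49.5 at day 1 to 108 at day 3, where 4 of 9 compared were higher. Of these calls, those of Pecam1, Cdh5 and Kdr were lost with a pseudocount of 1 FPKM, and that of Ly6c1 was not. At day 14, Ly6c1 was higher (log2 ratio 1.68). Flt1 had no entry at day 14, so no direction is given for it there. Cldn5 was listed at day 1 only, and 2 of 9, Slco1a4 and Tek, were lower there (Tek not with a pseudocount of 1 FPKM). The 8 oligodendrocyte markers with a value (Mobp not listed) ranged from 1729 to 2433, with 1 gene, Mag, past the threshold (day 7, lost with median-of-ratios scaling and with the correction for length). The part of such shifts in cell content in the levels of the 9 genes was not tested.

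**Figure D5:**
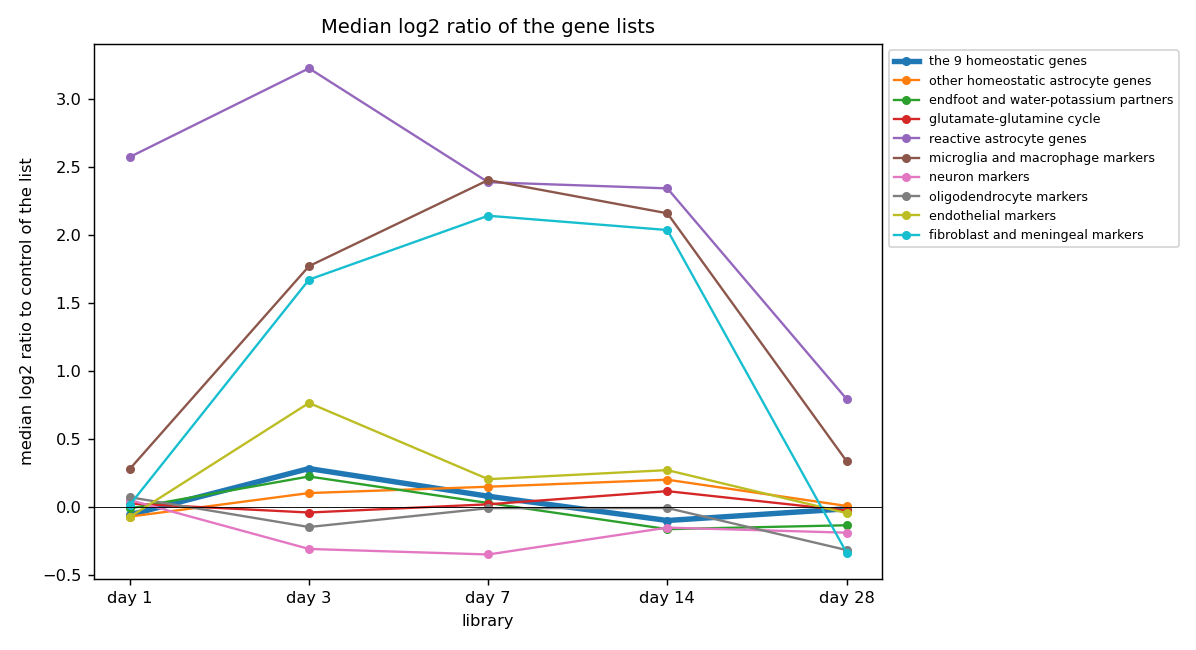
Median log2 ratio to control (vertical axis), without the correction for length, of the 9 genes (thick line) and of 9 other gene lists at each time point, 1 library per group. The 9 genes stay between -0.10 and 0.28, whereas the reactive astrocyte list reaches 3.22 at day 3.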

How the data were processed

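Strand-specific libraries were made from poly(A) RNA of ipsilateral cortex for paired-end sequencing. The deposited values are FPKM, which the authors computed per transcript start, transcript end and splicing event on mm10. The submitters' processing notes name Trimmomatic 0.30, HISAT2 2.0.1 and HTSeq 0.6.1 without roles. The tool behind the event tables is not given in the sources used here. Depth per library is unknown, so no interval or floor is given.

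The value of a gene was the largest of its summed start events, its summed end events and any single event. A gene entered a comparison with at least 1 FPKM in 1 of its 2 libraries. Ratios are log2((FPKM + 0.1)/(control FPKM + 0.1)), a scale that understates changes of low genes. The threshold was 1. A gene not listed counted as 0, which does not show that it was not expressed. Of 15441 identifiers, 15411 matched GENCODE M21. The 9 genes and the lists were chosen with earlier results of these data known. Besides the 9 genes, those named were drawn from the first 3 genes of each list and the 4 of its genes with the largest ratios. These ratios were taken among genes with at least 1 FPKM in control and in the library of that day. The 8 genes nearest to the median profile are also named. Not every gene that this rule allows is named. Other list genes, named for a count of 5 or fewer, for an example or as not listed, were chosen after their values were seen. Motifs were searched in the 250 bases before RefSeq starts. Methods were tested on simulated data. Tools were Python 3.11.15 with pandas 2.3.3, numpy 2.4.6, matplotlib 3.10.9 and scipy 1.17.1.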

Additional observations from a re-analysis of the deposited data

How the results depend on the processing

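No paired analysis was possible because each group holds 1 library, and for the same reason no replicate could be left out. Without replicates, a value was called moved when it changed by 0.3 or more on the log2 scale. Of 55 recomputed medians of the 9 genes 0 moved, and of 477 recomputed ratios of single genes 4 moved. The medians themselves lay between -0.10 and 0.28, so a change of sign can stay below this limit, and 0 moved does not show a stable direction. At day 14, 4 of the 9 genes were above control, but only 1 of 9 with the correction for length. Of 54 ratios within a library 5 moved, and of 2590 values of the other gene lists 266 moved. Of 123 calls of list genes at log2 1, 28 were lost under 1 or more of the 11 alternatives other than the thresholds, and 13 rest on a gene not listed in 1 of the 2 libraries. Threshold: at a fold of 1.5, 1 gene (Aqp4) was higher at day 3 (15.9% of all genes) and 2 (Slc1a2, Slc4a4) were lower at day 14 (13.4%). At log2 0.5, 1 was higher at day 1 (Gjb6, 14% of all genes), 1 at day 3 (Aqp4, 18.5%) and 1 at day 14 (S100b, 22.3%), and 2 were lower at day 14 (15.9%). Gene value: with summed starts, or the larger of the start and end sums, 1 gene was lower at day 14 (the log2 ratio of Slc4a4 at day 14 was -7.22), because its leading start was not listed there, which is no measure of a low level. With summed starts the ratio of Slc1a2 to Slc1a3 moved to 2.17 for control and to 1.91, 1.75, 1.79 and 2.15 for day 1, 7, 14 and 28, because the listed starts of Slc1a3 sum to less than its end. Gja1 and Slc4a4 had no listed end, and Aldh1l1 none in control, so end sums gave them no ratio. At day 3, every one of the genes with a value was above control under each of the 11 alternatives other than the thresholds (9 genes, 8 with summed starts, 6 with summed ends). At day 7, Glul went below control with median-of-ratios scaling. Depth limits are unknown.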

Other observations

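Among 10160 other genes with at least 1 FPKM in all 6 libraries, the 8 whose 5 log2 ratios lay nearest to the median profile of the 9 genes were Abl1, Slc13a3, Dusp18, Ugp2, Nf1, Tcf19, Hnrnpul1 and Gys1, at Euclidean distances from 0.059 to 0.154. Abl1, a tyrosine kinase gene, had 7.64 FPKM in control and 9.08 at day 3, and Slc13a3, which encodes a sodium dicarboxylate transporter, 6.60 and 8.03. Ugp2 and Gys1 encode enzymes of glycogen synthesis. Ugp2 had 33.3 FPKM in control, then 30.8, 42.4, 36.2, 29.3 and 31.8 by increasing time. Of the 9 genes themselves, Slc1a3 was nearest to the median profile (0.202) and Slc4a4 farthest (0.826). Of the 10160 genes, 53.1% were nearer to it than Slc4a4, 43.9% than Slc1a2, 42.9% than Gjb6, 41.4% than S100b and 37.9% than Aqp4. For Aldh1l1 the share was 15.8%, and for Glul, Gja1 and Slc1a3 it was 1.54% or less. The median profile thus describes only some of the 9 genes closely.

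The choroid plexus markers Ttr, Folr1 and Kl were above control at day 1, below it at day 3 and above it at day 7 and 28, and their part in other results was not tested. Ttr had 279 FPKM in control, then 450.1, 177, 336, 291 and 549 from the earliest day to the latest, and Folr1 was past log2 1 at day 1 and 28, though not from summed ends. Foxj1 and Tmem212, genes of ciliated cells, were higher by that threshold at day 14 and Ccdc153 lower at day 28. The calls of Foxj1 and Ccdc153 were lost with a pseudocount of 1 FPKM, and that of Foxj1 also with the correction for length. Of the precursor markers Pdgfra, Olig1 and Gpr17 had no value in any library, and Olig2 stayed between 8.65 and 13.1 FPKM. Vcan had 1.77 FPKM in control and 0.042 at day 14, the library that listed the fewest events. Of the alternatives, 2 gave this Vcan call no value, and whether missing events lie behind it was not tested.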
